A study of Mus musculus with 2 samples.

Results

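The 9 genes described here encode insulin-like growth factor 1 (Igf1), the receptors Igf1r and Igf2r, and 6 proteins of the IGF binding protein family (Igfbp2 to Igfbp7). They were chosen by symbol from the 27998 genes of the deposited data, with earlier results of these data known. The study had already listed Igf1, Igfbp3, Igfbp4 and Igfbp5 among the genes higher in mutant cells. Counts of members past a fold are therefore not those of a blind choice. IGF1 is a secreted hormone that acts through the receptor tyrosine kinase IGF1R and drives growth of connective tissue, tendon included. IGF2R is a scavenging and sorting receptor that clears IGF2 and carries lysosomal enzymes. Most of the secreted IGFBPs bind IGF tightly and either hold it away from IGF1R or carry it to the cell surface, whereas IGFBP7 binds IGF weakly and is a matrix protein best known from blood vessels.

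Levels came from 2 single-cell RNA libraries of limb tendon at P7, 1 labelled wild-type and 1 labelled mutant, each made from the cells of 2 pups pooled before capture. The study asked what becomes of tenocytes that lose the TGFβ type II receptor. The mutant pups carried a floxed and a null allele of Tgfbr2 and ScxCre (Tgfbr2 f/-;ScxCre), in which the scleraxis promoter drives Cre in tendon cells, unevenly so before birth. The control library carries both the name wild type and the tag Het in its labels, so its alleles are not settled here, and by the study's methods all mice also carried the ScxGFP tendon reporter and the RosaT Cre reporter. Counts of Scx include reads from ScxGFP. With 1 library per genotype there is no spread between replicates, no test was run, and genotype, litter, preparation and sequencing run cannot be told apart. Every interval below is an exact 95% interval, the limit given for a count of 0 is that of 3 counts, and both cover counting error only.

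The libraries held 2364 and 2592 cells with medians of 3866.5 and 2828 UMIs (unique molecular identifiers, 1 per captured mRNA 3′ end), given here and throughout as wild-type first and mutant second. Cells were sorted into 5 classes by marker UMIs. Scx-high cells (30 or more Scx UMIs per 10,000) made up 48.8% (1154 cells) and 8.95% (232 cells), and Scx-low fibroblasts (5 or more UMIs over Ly6a, Cd34, Dpt, Lum and Col3a1) made up 29.9% (708 cells) and 70.8% (1835 cells). There were 162 and 97 mural cells (pericytes and smooth muscle), 22 and 32 endothelial cells, and 193 immune cells in each library. Of markers not used for the classes, Tnmd stood at 7488 and 5448 CPM (counts per 1e6 UMIs) in Scx-high cells against 1201 and 1044 CPM in Scx-low fibroblasts, and the macrophage genes C1qa, C1qb and C1qc summed to 12534 and 12835 CPM in immune cells. The vessel classes also held genes of other lists. In mural cells the 5 fibroblast genes summed to 5415 and 3838 CPM beside 3955 and 4971 CPM of the 6 mural genes. In mutant endothelial cells the 4 Schwann cell genes summed to 24023 CPM beside 4663 CPM of the endothelial list, against no Schwann UMI in the wild-type ones. The part of these in the results below was not tested. The Scx classes are ranges of a score. By the study's lineage tracing, ScxGFP-negative cells within mutant tendons came from tenocytes. In wild-type tendons the study stained Sca-1 (encoded by Ly6a) and CD34 in the epitenon, the layer around the tendon, but not in tenocytes. Its single-cell preparation left out the scraping that takes off epitenon and paratenon cells. Scx-low fibroblasts of the 2 libraries may therefore differ in origin. For cells that kept ScxGFP in mutant tendons, the study proposes recent recruitment, from weak or absent RosaT in some of them. Scx-high cells of the 2 libraries may thus differ in origin too. Origin and library cannot be told apart in ratios of either class between the libraries, and the part of origin was not tested. Between 20 and 40 Scx UMIs per 10,000 there were 20 Scx-high and 25 Scx-low cells in the wild-type library and 24 and 22 in the mutant library. Of the Scx-high cells, 181 of 1154 and 179 of 232 also reached 5 UMIs over the fibroblast list, so the Scx-high class of the mutant library held more fibroblast transcripts (5551 against 689.8 CPM), and the part of this in the results below was not tested. In the mutant library 6 of the 32 endothelial cells carried 5 or more Schwann cell UMIs. Haemoglobin-rich cells (88 and 79, median 5682 and 4451 UMIs) are set beside the other classes as a mark of free RNA. Haemoglobin took 95.6% and 96.9% of their UMIs, which lowers the CPM and thinned shares of other genes in them. Their values can thus understate free RNA in other classes, and a level above theirs need not be above free RNA. The part of free RNA in each level was not tested. Only 2 cell barcodes occurred in both libraries.

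All 9 members were located on GRCm38, the assembly named mm10 in the deposited data. Igf1 (ENSMUSG00000020053) lies on chr10:87858265-87937042, Igf1r (ENSMUSG00000005533) on chr7:67952827-68233668 and Igf2r (ENSMUSG00000023830) on chr17:12682406-12769664. Igfbp3 (ENSMUSG00000020427) on chr11:7206086-7213923, Igfbp4 (ENSMUSG00000017493) on chr11:99041244-99054392, Igfbp6 (ENSMUSG00000023046) on chr15:102144362-102149511 and Igfbp7 (ENSMUSG00000036256) on chr5:77349240-77408041 are each apart from the other measured members. Igfbp2 (ENSMUSG00000039323, chr1:72824503-72852474, plus strand) and Igfbp5 (ENSMUSG00000026185, chr1:72857932-72874884, minus strand) are neighbours that converge tail to tail, with 5457 bases between their annotated ends. The 250 bases before the RefSeq start are shown for 4 binding protein genes, because Igfbp2, Igfbp4 and Igfbp6 had the widest gaps between the libraries in Scx-low fibroblasts and Igfbp5 is the neighbour of Igfbp2. Capitals mark the E-box CANNTG, the core motif of the basic helix-loop-helix factors to which scleraxis belongs, which reads the same on both strands. Each is written 5′ to 3′ on the strand of its gene, from chr1:72824230-72824479 (plus), chr11:99040994-99041243 (plus), chr1:72874866-72875115 (minus) and chr15:102143936-102144185 (plus) in this order.
Igfbp2: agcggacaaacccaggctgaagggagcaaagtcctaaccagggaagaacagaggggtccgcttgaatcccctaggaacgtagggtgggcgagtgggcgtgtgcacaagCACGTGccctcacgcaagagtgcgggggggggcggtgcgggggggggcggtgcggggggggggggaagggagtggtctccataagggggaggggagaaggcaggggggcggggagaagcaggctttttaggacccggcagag
Igfbp4: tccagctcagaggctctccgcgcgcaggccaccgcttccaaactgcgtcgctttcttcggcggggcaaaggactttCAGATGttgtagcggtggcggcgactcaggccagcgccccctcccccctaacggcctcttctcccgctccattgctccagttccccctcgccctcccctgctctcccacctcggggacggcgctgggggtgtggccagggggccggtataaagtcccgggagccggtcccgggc
Igfbp5: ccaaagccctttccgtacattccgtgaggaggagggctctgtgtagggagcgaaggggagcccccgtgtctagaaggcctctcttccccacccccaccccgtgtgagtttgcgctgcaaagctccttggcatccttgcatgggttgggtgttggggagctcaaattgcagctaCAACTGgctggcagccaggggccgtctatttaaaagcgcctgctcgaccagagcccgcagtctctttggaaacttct
Igfbp6: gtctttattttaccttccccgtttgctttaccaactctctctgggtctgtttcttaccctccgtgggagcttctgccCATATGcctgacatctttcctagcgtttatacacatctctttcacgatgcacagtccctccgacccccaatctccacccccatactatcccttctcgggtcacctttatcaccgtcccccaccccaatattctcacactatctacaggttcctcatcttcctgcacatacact
Each of these 4 windows held 1 E-box. Over all members 7 of 9 windows held at least 1, with none in Igf1r and Igfbp7 and 4 in Igf2r, beside 66.2% of the 32851 RefSeq promoter windows of this length. The palindromic SMAD element GTCTAGAC was in none of the 9, beside 0.167% of all windows. The GC content of the 9 windows ran from 49.6% in Igfbp6 to 77.6% in Igf1r. These matches describe the letters only.

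Igf1, the ligand, was highest in Scx-low fibroblasts of both libraries. Its level was 516 CPM (interval 489 to 544, from 1375 UMIs) in the wild-type library and 751 CPM (729 to 774, from 4305 UMIs) in the mutant library. In Scx-high cells it was 149.8 and 322 CPM, in immune cells 264 and 309 CPM, in mural cells 29.97 and 84.5 CPM, and in endothelial cells, from 2 UMIs each, 23.6 and 18.1 CPM. Fibroblasts stood above every other class, and mural and endothelial cells, whose intervals overlapped, came last. Haemoglobin-rich cells had 28.6 and 3.0 CPM, and the intervals of wild-type mural and endothelial cells overlapped with that of the wild-type haemoglobin-rich cells. Immune cells ranked above Scx-high cells in the wild-type library, while in the mutant library the intervals of these classes overlapped.

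Once each cell was thinned to 1500 UMIs, an Igf1 UMI was found in 43.2% (39.4 to 47.0) of the wild-type and 60.02% (57.6 to 62.4) of the mutant Scx-low fibroblasts, and in 18.9% and 31.0% of the Scx-high cells. The share in haemoglobin-rich cells was 1.30% and 1.41%. Without thinning the shares were 58.2% and 73.1% of the Scx-low fibroblasts and 38.4% and 55.2% of the Scx-high cells. Igf1 therefore covered a larger share of both classes in the mutant library at equal depth. Per cell, the median Scx-low fibroblast had 2.96 and 5.77 Igf1 UMIs per 10,000, and the cell at the 90th percentile 15.9 and 20.6. Mutant over wild-type, the ratio of Igf1 was 1.45 (1.37 to 1.55) in Scx-low fibroblasts and 2.15 (1.88 to 2.44) in Scx-high cells. In immune cells it was 1.17 (0.908 to 1.51), an interval that includes 1.

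Among immune cells the Igf1 transcripts lay in macrophages, taken as cells with 3 or more UMIs over C1qa, C1qb and C1qc. The 181 wild-type and 164 mutant macrophages had 277 and 373 CPM, a ratio of 1.34 (1.04 to 1.73), while the other 12 and 29 immune cells had 0 and 52.6 CPM. Macrophages are a known source of IGF1 in injured muscle and other tissues. Over each whole library, in which the class sizes differ too, Igf1 stood at 242 and 589 CPM, a ratio of 2.43 (2.31 to 2.56). Scx-low fibroblasts supplied 60.1% of the wild-type Igf1 UMIs with 28.2% of the library, and 88.6% of the mutant Igf1 UMIs with 69.5% of the library. Immune cells supplied 5.99% and 2.45%.

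**Figure D1:**
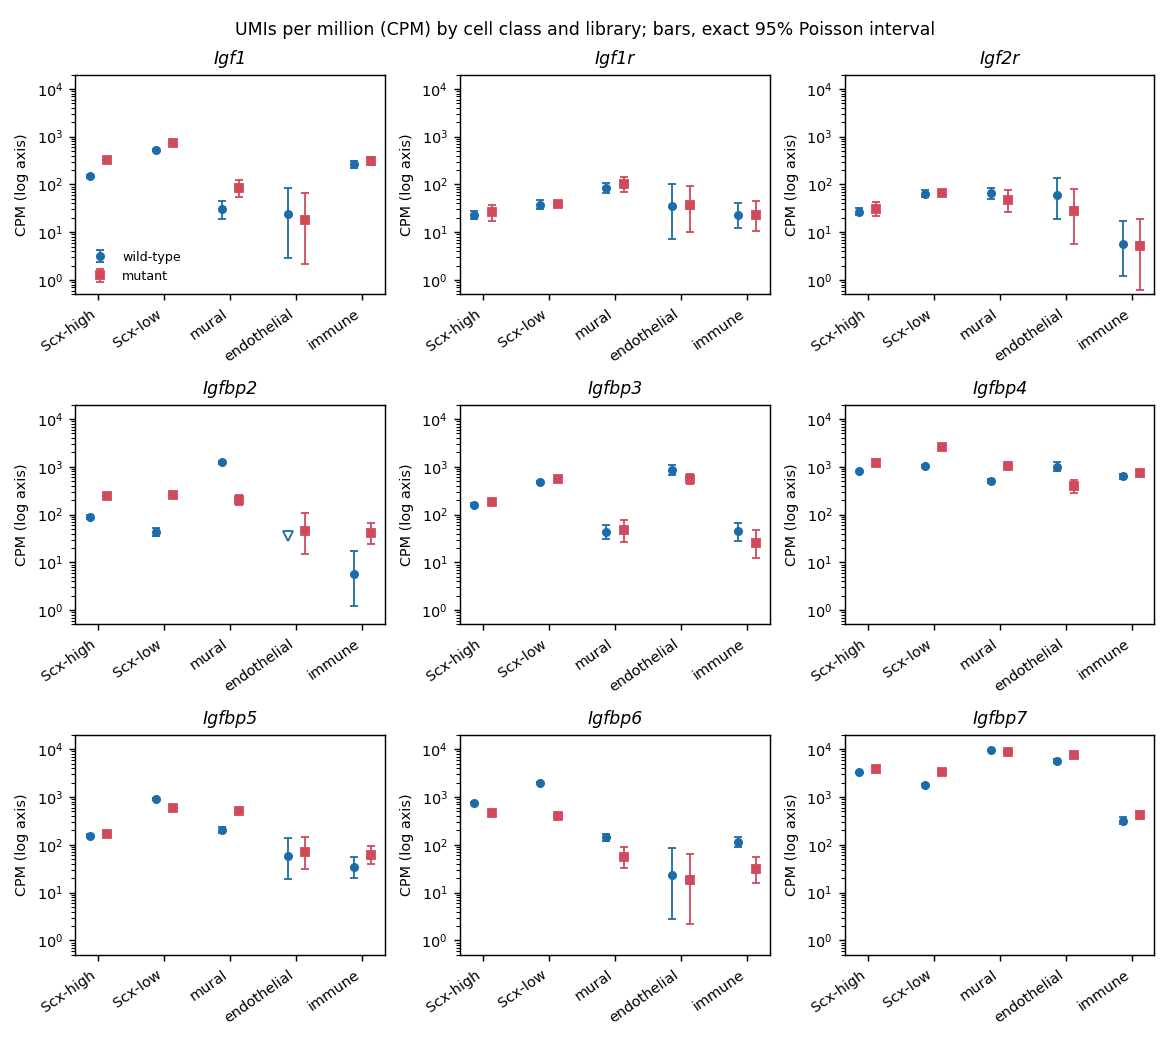
Level of each of the 9 members in CPM (log axis) in 5 cell classes, with 1 point per library (blue circles, wild-type; red squares, mutant) and exact 95% Poisson bars; the open triangle is the limit of 3 UMIs for Igfbp2 in wild-type endothelial cells, where no UMI was found. Igf1 peaks in Scx-low fibroblasts, Igfbp7 in mural cells, and Igfbp6 in Scx-low fibroblasts of the wild-type library alone.

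The receptors were low in every class, at 100.2 CPM or less. Igf1r, the signalling receptor, was highest in mural cells, at 86.2 CPM (67.0 to 109) and 100.2 CPM (68.5 to 141). Mural cells with 3 or more UMIs of the smooth muscle gene Myh11 had 119.9 and 194.8 CPM of Igf1r. Those with fewer had 40.9 and 44.7 CPM, in a split made after the data had been seen. Scx-low fibroblasts had 37.9 and 38.2 CPM, Scx-high cells 22.5 and 26.3 CPM and immune cells 23.1 and 23.4 CPM. Endothelial cells, from 3 and 4 UMIs, had 35.5 and 36.2 CPM. Below the mural cells the intervals of neighbouring classes overlapped. After thinning, 9.27% and 9.30% of the mural cells and 5.10% and 5.76% of the Scx-low fibroblasts had an Igf1r UMI, with none in 77 and 71 haemoglobin-rich cells, which allows up to 3.90% and 4.23% of them. Its ratio in Scx-low fibroblasts was 1.01 (0.792 to 1.29), an interval that includes differences in either direction. In Scx-high cells the ratio was 1.17 (0.742 to 1.78) and in mural cells 1.16 (0.740 to 1.79).

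Igf2r had its highest wild-type levels in mural cells (64.9 CPM), Scx-low fibroblasts (64.2 CPM) and endothelial cells (59.1 CPM, from 5 UMIs), which overlapped. In the mutant library the same classes had 47.0, 65.6 and 27.2 CPM. Scx-high cells had 26.8 and 30.9 CPM and immune cells, from 3 and 2 UMIs, 5.78 and 5.2 CPM. Within each library Igf2r was higher in Scx-low fibroblasts than in Scx-high cells, by ratios of 2.39 (1.89 to 3.03) and 2.12 (1.48 to 3.12). Mutant over wild-type it had a ratio of 1.02 (0.85 to 1.23) in Scx-low fibroblasts and 1.15 (0.762 to 1.70) in Scx-high cells. It was 0.723 (0.378 to 1.30) in mural cells, 1.5 (1.29 to 1.74) with both fibroblast classes summed and 1.37 (1.19 to 1.58) over the whole libraries, in which the class sizes differ too. UMIs count molecules at their 3′ ends without regard to length, though capture may still differ between genes. In wild-type Scx-low fibroblasts the level of Igf1r was below that of every binding protein but Igfbp2. The intervals of Igf1r (30.9 to 46.1 CPM) and Igfbp2 (35.3 to 51.4 CPM) overlapped. Igf2r was below all binding proteins but Igfbp2.

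Igfbp2, a binding protein of fetal and growing tissues, led in different classes in the 2 libraries. In the wild-type library it was highest in mural cells, at 1239 CPM (1163 to 1318), with 88.6 CPM in Scx-high cells, 42.8 CPM in Scx-low fibroblasts, 5.78 CPM in immune cells and no UMI among 22 endothelial cells, which allows up to 35.5 CPM. The mutant library had 207 CPM (160 to 263) in mural cells, 240.1 CPM in Scx-high cells, 256 CPM (243 to 269) in Scx-low fibroblasts, 45.3 CPM in endothelial cells and 41.6 CPM in immune cells. In the wild-type library mural cells stood apart, and in the mutant library mural cells, Scx-high cells and Scx-low fibroblasts overlapped. Mural cells held 64.5% of all Igfbp2 UMIs of the wild-type library and 3.64% of those of the mutant library, where Scx-low fibroblasts held 80.8%.

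Mutant over wild-type, the ratio of Igfbp2 was 5.97 (4.93 to 7.29) in Scx-low fibroblasts, 2.71 (2.31 to 3.17) in Scx-high cells and 0.167 (0.128 to 0.214) in mural cells. At equal depth an Igfbp2 UMI was in 3.90% (2.56 to 5.66) and 13.9% (12.3 to 15.7) of the Scx-low fibroblasts and in 44.4% (36.3 to 52.7) and 10.5% (4.90 to 18.9) of the mural cells, against 1.30% of the wild-type haemoglobin-rich cells and none of the 71 mutant ones, which allows up to 4.23%. So in Scx-low fibroblasts most cells of either library had none, and the median cell was at 0. Of the mural cells, 116 of 162 and 48 of 97 also reached 5 fibroblast UMIs, and the class was split by Myh11, a smooth muscle myosin, after the data had been seen. The 81 and 31 cells with 3 or more Myh11 UMIs had 1987 and 279 CPM, a ratio of 0.141 (0.0962 to 0.199), and the 81 and 66 cells with fewer had 237 and 164 CPM, a ratio of 0.692 (0.447 to 1.05). The lower mutant level was thus seen in the Myh11-rich cells, and in the others the interval included 1. Levels of Myh11 in the whole class were 1086 and 804 CPM and of Acta2, smooth muscle actin, 21044 and 13388 CPM. Their part in the Igfbp2 result was not tested.

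Igfbp3, the main carrier of IGF in blood, was found in endothelial cells and Scx-low fibroblasts. Endothelial cells had 875 CPM (687 to 1098) and 561 CPM (430 to 720), Scx-low fibroblasts 489.7 and 570.4 CPM, and Scx-high cells 161 and 186 CPM. Mural cells (43.7 and 47.0 CPM) and immune cells (44.4 and 26.0 CPM) were the lowest. Scx-low fibroblasts exceeded Scx-high cells by nearly the same ratio in each library, 3.04 (2.78 to 3.33) and 3.07 (2.66 to 3.56). Between libraries Igfbp3 had a ratio of 1.16 (1.09 to 1.24) in Scx-low fibroblasts and 1.15 (0.982 to 1.35) in Scx-high cells. In endothelial cells it was 0.642 (0.450 to 0.912), and 0.831 (0.583 to 1.18) without the 6 mutant cells that carried Schwann cell UMIs, a setting added after the data had been seen.

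Igfbp4, which is cut by the protease PAPP-A, was the binding protein spread most evenly over the classes of the wild-type library. It had 1042 CPM (1003 to 1081) in Scx-low fibroblasts, 1017 CPM in endothelial cells, 802 CPM in Scx-high cells, 636 CPM in immune cells and 516 CPM in mural cells. The mutant values were 2635 CPM (2593 to 2677), 389 CPM, 1201 CPM, 759 CPM and 1058 CPM in the same classes. Scx-low fibroblasts of the mutant library stood far above every other class, which was not so in the wild-type library, where they overlapped with endothelial cells. An Igfbp4 UMI was in 65.7% (61.9 to 69.3) and 89.3% (87.7 to 90.7) of the thinned Scx-low fibroblasts, against 3.90% and 2.82% of the haemoglobin-rich cells. The median Scx-low fibroblast held 8.43 and 18.6 Igfbp4 UMIs per 10,000. The ratio of mutant over wild-type was 2.53 (2.43 to 2.64) in Scx-low fibroblasts, 2.05 (1.77 to 2.37) in mural cells and 1.5 (1.41 to 1.60) in Scx-high cells. It was 1.19 (1.02 to 1.40) in immune cells and 0.383 (0.259 to 0.559) in endothelial cells, or 0.496 (0.336 to 0.723) without those with Schwann cell UMIs.

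Igfbp5, which binds extracellular matrix, had its highest level among the 5 classes in Scx-low fibroblasts, though not in all their subsets. It was at 913 CPM (877 to 950) in wild-type cells and 603 CPM (583 to 624) in mutant ones. Mural cells had 207 and 507 CPM, Scx-high cells 155 and 169.7 CPM, endothelial cells 59.1 and 72.4 CPM and immune cells 34.7 and 62.4 CPM. Scx-low fibroblasts stood above mural cells in the wild-type library, while in the mutant library their intervals, 583 to 624 and 432 to 591 CPM, overlapped. A UMI was in 38.1% and 33.1% of the Scx-low fibroblasts after thinning and in 49.7% and 42.9% of them without it, and the median cell had none. Mutant over wild-type, the ratio was 0.661 (0.627 to 0.697) in Scx-low fibroblasts, 1.10 (0.928 to 1.29) in Scx-high cells and 2.45 (1.96 to 3.06) in mural cells. In mural cells with 3 or more Myh11 UMIs, it was 4.92 (3.60 to 6.75), from 164 and 805 CPM. In those with fewer it was 1.25 (0.899 to 1.73), from 266 and 333 CPM, an interval that includes 1.

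Igfbp6, which prefers IGF2 over IGF1, had the lowest ratio of mutant over wild-type among the 9 members in Scx-low fibroblasts. It was at 1991 CPM (1938 to 2046) in wild-type Scx-low fibroblasts and at 399 CPM (382 to 415) in mutant ones, a ratio of 0.200 (0.190 to 0.210). Scx-high cells had 765 and 465 CPM, a ratio of 0.608 (0.553 to 0.668). Wild-type Scx-low fibroblasts stood above wild-type Scx-high cells, and in the mutant library the order was turned. At equal depth 71.5% (67.9 to 74.9) of the wild-type and 25.8% (23.7 to 28.0) of the mutant Scx-low fibroblasts had an Igfbp6 UMI, as did 56.6% and 35.2% of the Scx-high cells, against 5.19% of the wild-type haemoglobin-rich cells and none of the mutant ones. The median Scx-low fibroblast held 12.8 UMIs per 10,000 in the wild-type library and none in the mutant library.

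Outside the Scx-high cells and Scx-low fibroblasts Igfbp6 was lower. Haemoglobin-rich cells had 34.7 CPM (20.2 to 55.6) and, with no UMI, up to 9.01 CPM. Immune cells had 116 CPM (88.3 to 149) and 31.2 CPM (16.1 to 54.5), a ratio of 0.270 (0.132 to 0.506). Both were above the CPM of haemoglobin-rich cells, which haemoglobin lowers. Per cell, the mean of Igfbp6 was 0.311 and 0.0622 UMIs in immune cells and 0.193 and 0 UMIs in haemoglobin-rich cells. After thinning, 6.58% (3.20 to 11.8) and 3.57% (0.982 to 8.89) of the immune cells had a UMI, at median depths of 2413 and 1704 UMIs. These shares, unlike the CPM, overlapped with those of haemoglobin-rich cells. The tendon gene Scx stood at 1527 and 80.6 CPM in the same cells. The part of free RNA in the immune ratio was not tested. Mural cells had 144 CPM (119 to 172) and 56.3 CPM (33.4 to 89.0) of Igfbp6, also above haemoglobin-rich cells, a ratio of 0.392 (0.225 to 0.648). It became 1.2 (0.502 to 2.61) in the cells with 3 or more Myh11 UMIs, a setting added after the data had been seen. In mural cells with fewer it was 0.178 (0.0787 to 0.354), from 251 and 44.7 CPM.

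Igfbp7 had the most UMIs of all members in every class but immune cells and, in the wild-type library, Scx-low fibroblasts. It had 9471 and 8930 CPM in mural cells, 5745 and 7751 CPM in endothelial cells, 3269 and 3960 CPM in Scx-high cells, 1802 and 3353 CPM in Scx-low fibroblasts and 322 and 416 CPM in immune cells. The order of the classes was the same in both libraries, with no overlap between neighbours. Without the 6 mutant cells with Schwann cell UMIs, which held 1 Igfbp7 UMI, mutant endothelial cells had 10022 CPM (9361 to 10717) and stood above the mural cells (8606 to 9264). After thinning, 10.5% (6.14 to 16.5) and 19.6% (12.7 to 28.2) of the immune cells had a UMI, against 6.49% (2.14 to 14.5) and 1.41% (0.0357 to 7.60) of the haemoglobin-rich cells. The ratio of mutant over wild-type was 1.86 (1.80 to 1.92) in Scx-low fibroblasts, 1.35 (1.21 to 1.51) in endothelial cells, or 1.74 (1.56 to 1.95) without those with Schwann cell UMIs, and 0.943 (0.903 to 0.985) in mural cells. In Scx-high cells it was 1.21 (1.17 to 1.25), which turned to 0.935 when the ratio was set against the median gene of that comparison. Within mural cells it was 0.863 (0.807 to 0.921) with 3 or more Myh11 UMIs and 1.15 (1.08 to 1.22) with fewer.

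**Figure D2:**
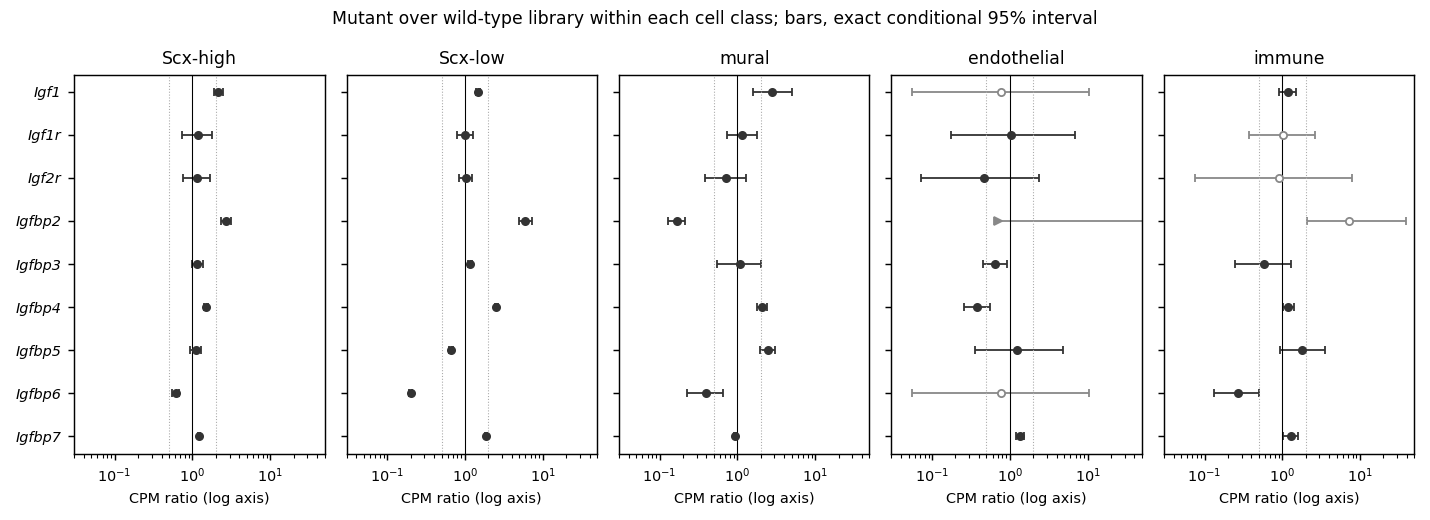
Ratio of CPM in the mutant over the wild-type library (log axis) for the 9 members in each of 5 cell classes, with exact conditional 95% bars, a solid line at 1 and dotted lines at 2-fold; open grey points mark members under a mean of 0.1 UMI per cell in both libraries, and the arrow starts at the lower limit for Igfbp2 in endothelial cells. Igfbp2 lies at 5.97 in Scx-low fibroblasts and 0.167 in mural cells, and Igfbp6 at 0.200 in Scx-low fibroblasts.

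Counted together, the 6 binding proteins took 6280 and 7816 CPM in Scx-low fibroblasts, 5239 and 6222 CPM in Scx-high cells, 11620 and 10805 CPM in mural cells, 7719 and 8838 CPM in endothelial cells and 1159 and 1337 CPM in immune cells. The totals of the 2 libraries were thus closer than those of most single members, and it was the make-up that differed in Scx-low fibroblasts. There Igfbp6 gave 31.7% of the binding protein UMIs in wild-type cells and 5.10% in mutant ones, and Igfbp4 16.6% and 33.7%. Igfbp7 gave 28.7% and 42.9%, Igfbp5 14.5% and 7.72%, Igfbp3 7.80% and 7.30%, and Igfbp2 0.682% and 3.27%. In Scx-high cells Igfbp7 led in both libraries with 62.4% and 63.6%, and Igfbp6 gave 14.6% and 7.48%. Igfbp7 also led in mural cells with 81.5% and 82.6%, while Igfbp2 gave 10.7% and 1.91% there.

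**Figure D3:**
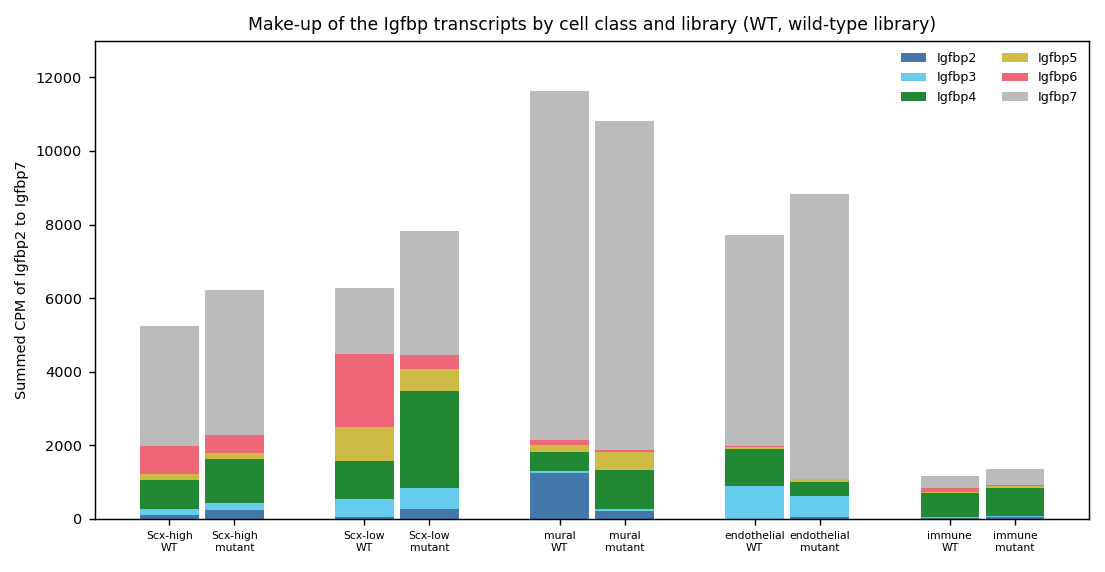
Summed CPM of Igfbp2 to Igfbp7 (linear axis from 0) in 5 cell classes of each library, with each bar divided by gene. In Scx-low fibroblasts the red Igfbp6 segment takes 31.7% of the wild-type bar and 5.10% of the mutant bar, and the green Igfbp4 segment 16.6% and 33.7%.

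Single cells carried several of these genes at once. After thinning to 1500 UMIs the median Scx-low fibroblast and the median Scx-high cell had UMIs of 3 of the 6 Igfbp genes in both libraries, mural and endothelial cells of 2, immune cells of 1 and haemoglobin-rich cells of 0. UMIs of 3 or more Igfbp genes were in 61.3% (57.5 to 65.0) and 67.8% (65.5 to 70.1) of the Scx-low fibroblasts and in 53.7% (50.7 to 56.7) and 53.1% (46.1 to 59.9) of the Scx-high cells. The number of Igfbp genes per cell was thus alike in the Scx-high cells of both libraries.

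Taking calls as at least 2-fold among genes with a mean of 0.1 UMI per cell or more in either group, the wild-type library had 5 of 9 members higher in Scx-low fibroblasts than in Scx-high cells (Igf1, Igf2r, Igfbp3, Igfbp5 and Igfbp6), beside 19.6% of all 4923 genes, and 1 lower (Igfbp2), beside 5.36%. Igfbp5 had the largest ratio, 5.90 (5.43 to 6.42), followed by Igf1 with 3.45 (3.15 to 3.78). Igfbp6 had 2.6 (2.5 to 2.72) and Igfbp2 0.483 (0.389 to 0.595). The median ratio of all genes was 1.37 (log2 0.46), and relative to it Igfbp5 stood at 4.30, Igf1 at 2.51 and Igfbp3 at 2.22. Igf2r, at 1.74, and Igfbp6, at 1.90, fell under 2-fold on that scale, while Igfbp2 stood at 0.352 and Igfbp7, at 0.402, came to be lower. Igfbp4 had a ratio of 1.30 (1.24 to 1.36) that turned to 0.947 on that scale. The median log2 ratio of the members was 1.26 beside the 0.46 of all genes. The call of Igfbp2 was lost with the limit of the Scx-high class at 20 Scx UMIs per 10,000 or with 5 or more UMIs asked of the other class markers.

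In the mutant library the same contrast had 5 of 9 members higher (Igf1, Igf2r, Igfbp3, Igfbp4 and Igfbp5), beside 7.28% of 5081 genes, and 0 lower, beside 6.73%. The median of all genes was at log2 0.00 and that of the members at 1.08. Igf1 had a ratio of 2.33 (2.09 to 2.61), Igfbp4 of 2.19 (2.07 to 2.32) and Igfbp5 of 3.55 (3.06 to 4.15). Igfbp6, at 0.857 (0.777 to 0.946), and Igfbp2, at 1.06 (0.931 to 1.22) and between 0.649 and 1.54 under the alternatives, did not reach 2-fold, unlike in the wild-type library. Between these contrasts Igf1, Igf2r, Igfbp3 and Igfbp5 kept their higher level in Scx-low fibroblasts, whereas Igfbp4 and Igfbp6 exchanged places.

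Mutant over wild-type within Scx-low fibroblasts, 2 of 9 members were higher (Igfbp2 and Igfbp4), beside 3.24% of 4779 genes, and 1 was lower (Igfbp6), beside 5.13%. The cells of this class may differ in origin between the libraries. The median of all genes was near 1, at log2 -0.05, and the values changed little when set against it (6.17 for Igfbp2, 2.61 for Igfbp4 and 0.207 for Igfbp6). Within Scx-high cells, 2 were higher (Igf1 and Igfbp2), beside 14.5% of 5072 genes, and 0 lower, beside 4.2%. Scx-high cells may differ in origin between the libraries as well. The median gene of that comparison was at 1.30 (log2 0.37), and relative to it Igf1 stood at 1.66, Igfbp2 at 2.09, Igfbp4 at 1.16 and Igfbp6 at 0.469. Both classes were also summed, a sum in which the class sizes differ too. Cells under the Scx limit with fewer than 5 fibroblast UMIs are not in it. Igf1, Igfbp2 and Igfbp4 were higher in this sum, 3 of 9 beside 6.03% of 4576 genes, and Igfbp6 was lower, 1 of 9 beside 3.85%. The ratios were then 2.44 (2.31 to 2.57) for Igf1, 3.50 (3.18 to 3.86) for Igfbp2, 2.72 (2.64 to 2.79) for Igfbp4 and 0.340 (0.326 to 0.355) for Igfbp6.

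Set against wild-type Scx-high cells, the Scx-low fibroblasts of the mutant library had 6 of 9 members higher, beside 17.8% of 4516 genes, and 0 lower, beside 6.84%. This comparison is the nearest here to that of mutant with wild-type tendon cells, and in it class and library differ together. Igf1 had the largest ratio, 5.01 (4.63 to 5.43), followed by Igfbp5 with 3.90 (3.60 to 4.23), Igfbp3 with 3.55 (3.28 to 3.84), Igfbp4 with 3.29 (3.17 to 3.40), Igfbp2 with 2.88 (2.59 to 3.22) and Igf2r with 2.44 (2.0 to 3.01). Igfbp6 had 0.521 (0.495 to 0.549) and Igfbp7 1.03 (1.0 to 1.05), which turned to 0.796 relative to the median gene, at 1.29. On that scale Igf1 stood at 3.89, Igf2r lost its call at 1.90 and Igfbp6, at 0.405, came to be lower. Wild-type Scx-low fibroblasts, set above against the same wild-type Scx-high cells, had Igf1, Igf2r, Igfbp3, Igfbp5 and Igfbp6 higher and Igfbp2 lower.

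In the classes outside the fibroblasts, 6 members reached a mean of 0.1 UMI per cell in immune cells. Of these, 0 were higher, beside 5.39% of 3656 genes, and 1 was lower (Igfbp6), beside 5.69%. Igfbp2, under that mean there, had a ratio of 7.19 from 3 and 16 UMIs and was not counted. Mural cells had 3 of 9 higher (Igf1, Igfbp4 and Igfbp5), beside 7.45% of 5720 genes, and 2 lower (Igfbp2 and Igfbp6), beside 5.49%. Relative to the median gene Igfbp4 in mural cells stood at 1.91. Igf1 in mural cells had a ratio of 2.82 (1.57 to 5.11) from 24 and 27 UMIs. With 5 or more UMIs asked of the mural markers 1 member was higher, a count given without the share of all genes at that setting. Endothelial cells, with 22 and 32 cells, had 0 of 7 higher, beside 15.1% of 5745 genes, and 2 lower (Igfbp4 and, from 5 and 3 UMIs, Igf2r at 0.460 with an interval of 0.0714 to 2.36), beside 16.6%.

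Levels were then followed along Scx content, in 6 ranges of Scx UMIs per 10,000 over the Scx-high cells and Scx-low fibroblasts of each library, each with 66 cells or more. Scx in immune cells, at 1527 and 80.6 CPM, differed between the libraries, so a range may not hold like cells in both. The part of free Scx RNA in the ranges was not tested. Igf1 was lower in each range with more Scx than in the one before it in the wild-type library, from 625 CPM (569 to 685) in cells with no Scx UMI to 136.7 CPM (119 to 157) in cells with 300 or more. In the mutant library it went from 792 CPM (765 to 819) to 252 CPM (204 to 308), and in each range it was above the wild-type level. Igfbp4 likewise went from 2783 to 943 CPM in the mutant library, while the wild-type library showed no such slope, with 989 CPM at one end and 793 CPM at the other and its lowest value, 607 CPM, at 30 to under 100. The 2 libraries were closest for Igfbp4 in the cells richest in Scx, at 793 CPM (749 to 840) and 943 CPM (847 to 1046).

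Igfbp6 ran between 343 and 547 CPM along Scx in the mutant library, and in the wild-type library from 2047 CPM (1944 to 2154) with no Scx UMI to 735 CPM (692 to 779) with 300 or more. In every range the mutant level was the lower. Igfbp2 went the other way in the wild-type library, from 24.9 CPM (14.8 to 39.3) with no Scx UMI to 110.7 CPM (94.5 to 129) in the highest range. In the mutant library it was highest in the middle, at 560.3 CPM (476 to 655) between 10 and under 30, and lowest in the highest range, at 77.0 CPM (51.6 to 111), where it overlapped with the wild-type level. For Igfbp2, Igfbp4 and Igfbp6 the gap between the libraries was smallest where Scx was highest, with Igfbp6 at 735 and 547 CPM there. Igfbp5 was at 1028 CPM in wild-type cells with over 0 to under 10 and at 106 CPM in the highest range, and at 637 and 50.5 CPM at the ends of the mutant series.

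**Figure D4:**
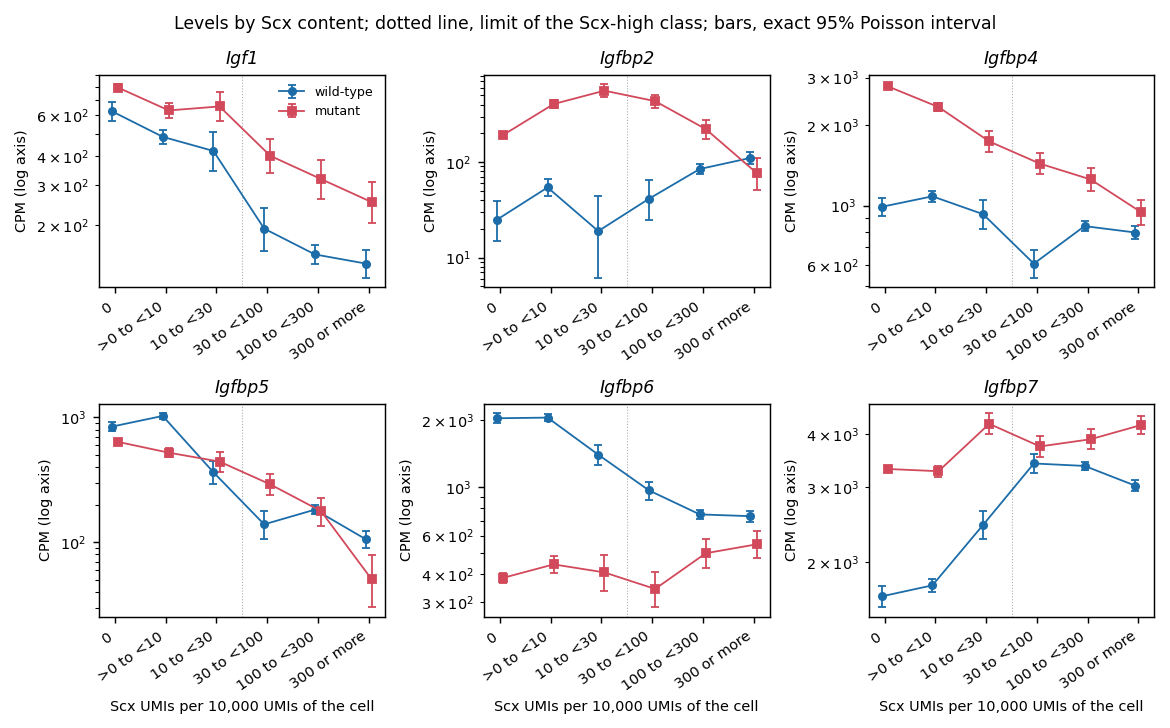
Level of 6 members in CPM (log axis, a different range in each panel) in 6 ranges of Scx UMIs per 10,000 UMIs of the cell, for the wild-type (blue circles) and mutant (red squares) libraries, with exact 95% Poisson bars and a dotted line at the limit of the Scx-high class. Igf1 is lower at high Scx in both libraries, Igfbp6 is lower at high Scx in the wild-type library, and Igfbp2 of the mutant library peaks at 560.3 CPM in the middle.

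The Scx-low fibroblasts were divided further. Those with 2 or more UMIs of Pi16, a marker of adventitial fibroblasts, numbered 220 and 222. Of the rest, 126 and 403 had 10 or more Tnmd UMIs per 10,000, and 362 and 1210 had fewer. Igfbp5 followed this division in both libraries, at 1849 and 1480 CPM in Pi16-positive cells, 547 and 522 CPM in the other cells and 79.4 and 311 CPM in the Tnmd-keeping cells. Within each library Pi16-positive cells exceeded the other cells by 3.38 (3.10 to 3.69) and 2.84 (2.63 to 3.05). The lower Igfbp5 of the mutant class as a whole was not seen in every subset: the ratio of mutant over wild-type was 0.801 (0.742 to 0.864) in Pi16-positive cells, 0.954 (0.877 to 1.04) in the other cells and 3.91 (2.73 to 5.80) in Tnmd-keeping cells. Pi16-positive cells made up 220 of 708 wild-type and 222 of 1835 mutant Scx-low fibroblasts.

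Igfbp6 was also highest in Pi16-positive cells, at 2961 and 832 CPM, with 1651 and 315 CPM in the other cells and 1000.4 and 375 CPM in Tnmd-keeping cells. All 3 subsets had less in the mutant library, with ratios of 0.281 (0.257 to 0.306), 0.191 (0.178 to 0.205) and 0.375 (0.328 to 0.429). Igfbp4 was higher in the mutant library in each subset, with ratios of 2.34 (2.17 to 2.53), 2.65 (2.51 to 2.81) and 2.69 (2.40 to 3.01), and varied little among subsets of a library. Igf1 had ratios of 1.24 (1.09 to 1.41), 1.45 (1.33 to 1.57) and 1.73 (1.47 to 2.03) in the same order. Igfbp3 was lowest in Pi16-positive cells, at 222 and 244 CPM against 673 and 634 CPM in the other cells.

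Igfbp2 in the mutant library had its highest level in the Tnmd-keeping cells, at 465 CPM (429 to 504, from 609 UMIs), with 216 CPM in the other cells, which held 788 UMIs, and 87.8 CPM in Pi16-positive cells. The wild-type values were 62.1, 58.5 and 10.1 CPM. A UMI was in 26.8% (22.3 to 31.6) of the thinned Tnmd-keeping mutant cells and in 6.84% (3.0 to 13.0) of the wild-type ones. Tnmd-keeping cells exceeded the other cells by 2.15 (1.94 to 2.40) in the mutant library, while in the wild-type library that ratio was 1.06 (0.649 to 1.68).

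**Figure D5:**
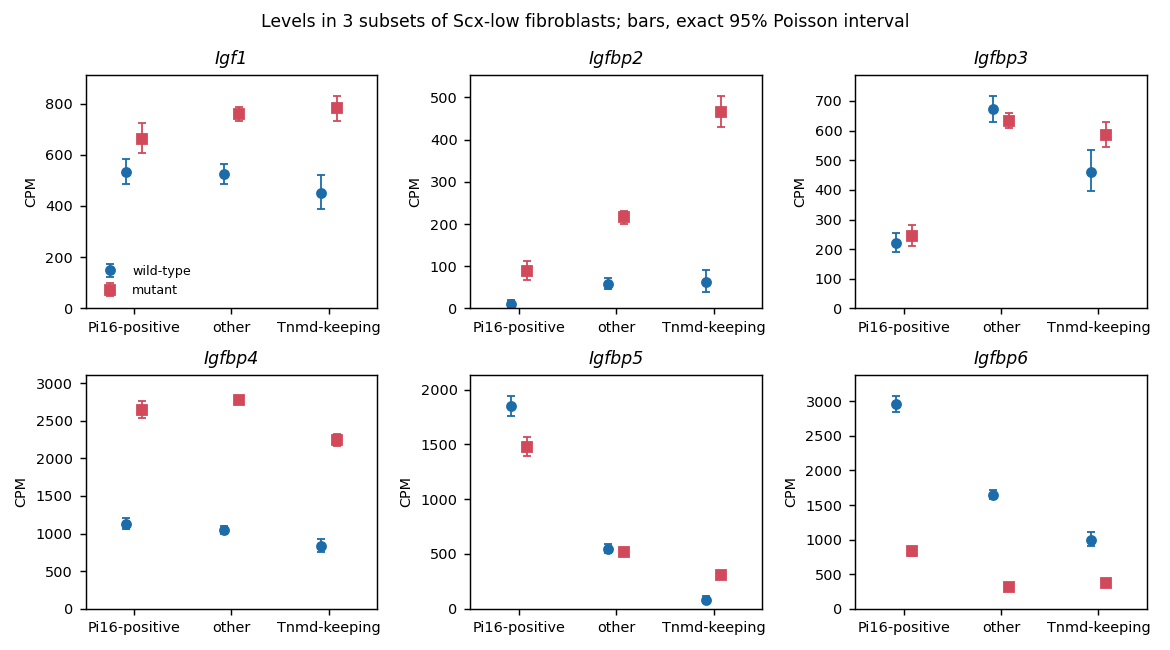
Level of 6 members in CPM (linear axes from 0) in 3 subsets of Scx-low fibroblasts, for the wild-type (blue circles) and mutant (red squares) libraries, with exact 95% Poisson bars. Igfbp5 is highest in Pi16-positive and lowest in Tnmd-keeping cells of both libraries, whereas Igfbp2 is highest, at 465 CPM, in Tnmd-keeping cells of the mutant library.

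The wider pathway was followed over a list of 32 other genes, of which 10 to 14 reached the mean of 0.1 UMI per cell in a comparison among fibroblast and vessel classes and 7 in immune cells. Igf2, the fetal ligand, went with Igf1 in being a fibroblast gene, at 970.7 and 874.9 CPM in Scx-low fibroblasts and 36.8 and 158 CPM in Scx-high cells. Low over high, it had ratios of 26.3 (22.6 to 30.9) and 5.52 (4.74 to 6.47). In the wild-type library 2 of 11 measured pathway genes were higher in Scx-low fibroblasts, Igf2 and Socs2 (an inhibitor of growth hormone signalling, 2.74), beside 19.6% of all genes, and 1 was lower, Htra1 (a secreted protease reported to cut IGFBPs, 0.318), beside 5.36%. The mutant library had 2 of 12 higher, Igf2 and Ghr (the growth hormone receptor, 2.22), beside 7.28%, and 1 lower, Htra1 (0.357), beside 6.73%. Htra1 stood at 893 and 1251 CPM in Scx-high cells against 284 and 446 CPM in Scx-low fibroblasts.

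Between the libraries, 0 of the 11 pathway genes measured in Scx-low fibroblasts reached 2-fold in either direction, beside 3.24% of all genes higher and 5.13% lower, with a median log2 ratio of 0.13 beside -0.05 of all genes. In Scx-high cells 2 of 12 were higher, Igf2 (4.30, interval 3.46 to 5.34) and Socs2 (3.51, interval 2.81 to 4.39), a share near the 14.5% of all genes, and 0 were lower, beside 4.2%. With both classes summed 3 of 12 were higher, Igf2 (2.06), Ghr (2.20) and Socs2 (2.35), beside 6.03%. Mutant Scx-low fibroblasts over wild-type Scx-high cells had 5 of 10 higher, Igf2, Ghr, Socs2, Grb10 (an adaptor that dampens IGF1R, 2.03) and Shc1 (an adaptor downstream of it, 2.16), beside 17.8%. Immune cells had 1 of 7 higher (Igf2), beside 5.39%, mural cells 2 of 14 (Ghr, and Pik3ca from 15 and 13 UMIs), beside 7.45%, and endothelial cells 2 of 14 lower (Ghr and Htra1), beside 16.6%. Igfbp1 had no UMI in either fibroblast class, and Insr, the insulin receptor, was at 3.8 and 6.8 CPM in Scx-low fibroblasts.

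Over the 10 sums of 5 classes in 2 libraries, the gene with the profile most like each member was taken from 7760 candidates by Pearson's r of log2(CPM + 10), as a description in which points of a library share depth and free RNA. Igf1 was most like Clcn5 (r = 0.93), Igf1r like Klhdc8b (0.98), Igf2r like Hspb11 (0.96), Igfbp2 like Ift81 (0.93) and Igfbp3 like S100a16 (0.97). Igfbp4 was most like Ghr (0.89), Igfbp5 like Cldn3 (0.97), Igfbp6 like Twist1 (0.97) and Igfbp7 like Pls3 (0.98). No member was among the 3 genes most like another member.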

How the data were processed

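Single cells from pooled limb tendons of 2 P7 pups per library were profiled with the 10x Genomics 3′ chemistry in a library named wild-type and another named mutant. The deposited values are UMI counts per gene and cell, without normalization, which the authors made with Cell Ranger at default settings from reads aligned to mm10, keeping barcodes by total UMI count. The submitters' processing notes give version 1.2.0, and the methods give a later one. All barcodes were used here.

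The members, gene lists and limits were chosen with earlier results of these data known. Cells with over 50% haemoglobin UMIs were set aside first. Cells with 3 or more UMIs over exactly 1 of the immune, endothelial and mural marker lists went to that class, and cells over more than 1 list (1 and 5) were left out. Scx-high cells and Scx-low fibroblasts followed, and 36 and 119 cells stayed unassigned. No doublet caller was run. UMIs were summed per class and scaled to CPM. Intervals were Poisson for CPM, binomial for shares after thinning to 1500 UMIs per cell (shallower cells left out), and conditional on the summed count for ratios, all exact at 95%. A gene counted as called at 2-fold with a mean of 0.1 UMI per cell or more in either group. The 9 members and the pathway genes past that limit are named, with the genes most like each member by correlation. The ratio and the thinning were tested on simulated data.

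Of the alternatives tried, 12 were listed at the outset with earlier results of these data known and 3 were added after the files were examined. They covered the class limits, a filter at 500 genes and 10% mitochondrial UMIs, the 5% deepest cells, cycling cells, the scaling, the thinning depth and the minimum level. Tgfbr2 gave ratios of 1.51 (1.07 to 2.10) in Scx-high cells and 0.986 (0.830 to 1.18) in Scx-low fibroblasts. Its 3′ ends lie outside the floxed part, so they check no label, and each direction rests on the names of the libraries. Coordinates are from GENCODE M21 and promoter windows from RefSeq on GRCm38.p6, in which 9 of 9 members matched. Python 3.11.15, NumPy 2.4.6, SciPy 1.17.1, pandas 2.3.3 and Matplotlib 3.10.9 were used.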

Additional observations from a re-analysis of the deposited data

Results flagged for a closer look

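Of 99 pairs of ratios of the same member that were set side by side, 13 were listed as on opposite sides of 1 with intervals that excluded 1 in both. Igfbp2 in immune cells, under a mean of 0.1 UMI per cell in both libraries, is not in this list. Its ratio there was 7.19, from 3 and 16 UMIs, against 0.167 in mural cells. The share of such pairs over all genes is not given, and these differences were not tested. Igfbp6 had a ratio of Scx-low fibroblasts over Scx-high cells of 2.6 in wild-type cells and 0.857 in mutant ones. Igfbp2, mutant over wild-type, stood at 2.71 in Scx-high cells and 5.97 in Scx-low fibroblasts against 0.167 in mural cells. Igfbp7 stood at 1.21 in Scx-high cells, 1.86 in Scx-low fibroblasts, 1.29 in immune cells and 1.35 in endothelial cells against 0.943 in mural cells. That mural ratio of Igfbp7 was 0.863 with 3 or more Myh11 UMIs and 1.15 with fewer, on different sides of 1. Among immune cells the Igfbp7 ratio was 1.06 (0.826 to 1.36) in macrophages, an interval that includes 1. The other immune cells had 40.6 CPM, from 1 UMI, and 658 CPM. Relative to the median gene, Igfbp7 stood at 0.935 in Scx-high cells and 0.878 in mural cells, on the same side. Igfbp4 stood at 1.5 in Scx-high cells, 2.53 in Scx-low fibroblasts, 1.19 in immune cells and 2.05 in mural cells against 0.383 in endothelial cells. Igfbp5 stood at 0.661 in Scx-low fibroblasts against 2.45 in mural cells, and Igfbp3 at 1.16 in Scx-low fibroblasts against 0.642 in endothelial cells. In mural cells with fewer than 3 Myh11 UMIs the interval of the Igfbp5 ratio, 0.899 to 1.73, included 1.

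The cells left without a class, 36 and 119 in number, entered no comparison. In both libraries the intervals of 7 members in them lay above those of haemoglobin-rich cells. Haemoglobin lowers the CPM of other genes in haemoglobin-rich cells, and the share of all genes above it is not given. Nothing particular to the members is read from this number. In the mutant library the cells without a class had 193 CPM of Igf1, 47.5 CPM of Igf1r, 226 CPM of Igfbp3, 234 CPM of Igfbp4, 161 CPM of Igfbp5, 117 CPM of Igfbp6 and 872 CPM of Igfbp7. Their Schwann cell genes summed to 20150 CPM.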

How the results depend on the processing

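No paired analysis was possible because each genotype has 1 library. The 13 alternatives that change ratios gave 909 values. Of these, 33 lay on the other side of 1 from the ratio as reported. For 32 of them that ratio was under 2-fold or not called, among them Igfbp2 in mutant Scx-low over Scx-high cells (4 alternatives) and Igf1r, Igf2r, Igfbp3, Igfbp5 and Igfbp7 in mutant over wild-type Scx-high cells. The other was Igfbp6 in mural cells, called lower and at log2 0.27 with only the cells that had 3 or more Myh11 UMIs. Values outside the counting interval of the reported ratio numbered 128 beside that one. In Scx-low fibroblasts the ratio of mutant over wild-type stayed between 5.31 and 7.05 for Igfbp2, 2.42 and 2.61 for Igfbp4, and 0.196 and 0.207 for Igfbp6. In Scx-high cells it stayed between 1.66 and 2.63 for Igf1 and 1.90 and 3.89 for Igfbp2.

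The counts below come without the share of all genes past 2-fold under the same alternative, which may move as well. They describe the calls of the members only and cannot be set against the shares given above. Counts of members past 2-fold that moved by over 1.5 times were these. Wild-type Scx-low over Scx-high had 0 lower with the Scx limit at 20 per 10,000 or with 5 or more class marker UMIs, 2 lower without the 20 most abundant genes in the total, and 3 higher and 2 lower when centred on the median ratio. Mutant over wild-type in Scx-high cells had 1 higher with the Scx limit at 60, without the 20 most abundant genes or when centred, and 1 lower when centred. Mutant Scx-low over wild-type Scx-high had 1 lower without the 20 most abundant genes or when centred. Immune cells had 2 lower with 5 or more class marker UMIs and 1 higher with no minimum but 10 UMIs. Mural cells had 1 higher with 5 or more class marker UMIs or with the mean over cells. Endothelial cells had 1 lower with 5 or more class marker UMIs, without the 5% deepest cells (and then 1 higher), with no minimum but 10 UMIs, or without cells with Schwann cell UMIs, and 4 lower without cycling cells. Smaller moves were these. The 5 members higher in mutant Scx-low over Scx-high cells became 4 with the Scx limit at 20, without the 5% deepest cells or with the mean over cells, and the 6 higher in mutant Scx-low over wild-type Scx-high cells became 5 without the 20 most abundant genes or when centred. The 5 higher in wild-type Scx-low over Scx-high cells became 4 without the 20 most abundant genes. In mural cells the 3 higher became 2 without the 5% deepest cells, without the 20 most abundant genes, when centred or without cycling cells, and the 2 lower became 3 with only Myh11-rich cells. The cause was not tested.

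Several values rest on 5 UMIs or fewer, among them Igf1, Igf1r, Igf2r, Igfbp2 and Igfbp6 in endothelial cells and Igf2r in immune cells. So do Igfbp2 in wild-type immune cells and Igfbp5 in wild-type endothelial cells.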
